A study of Mus musculus with 4 samples.

Results

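Collagen transcripts were followed in RNA sequencing of tumor-associated macrophages (TAMs) from subcutaneous NB9464 tumors, and 44 of the 54532 genes in the count table were collagens, taken as every protein-coding gene whose symbol has the form Col, a number, the letter a and a second number. Of these, 11 encode fibrillar chains, 6 encode the basement membrane chains of collagen IV, and 27 encode chains of other types. NB9464 is a murine neuroblastoma line with amplified MYCN. Tumors grew in untreated mice until day 40 after implantation, and the mice were of C57BL/6 background and a few weeks old at injection. The 2 libraries labelled SYK WT (M7 and M8) came from controls, and the 2 labelled SYK KO (M9 and M10) from mice with floxed Syk and a Cre recombinase driven by the lysozyme M gene (Lyz2), which is active mainly in myeloid cells. Cells were bound to magnetic beads against CD11b and F4/80, so bound and carried-over cells of a tumor enter one bulk library. The description of the deposited table speaks of adoptive transfer, that is, of macrophages moved into other mice, which the other labels do not mention, so it stays unsettled whether each label names the genotype of the host or of the cells. Nothing in the labels says that the libraries of a genotype came from separate animals, and p-values then measure only the spread between these libraries.

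Collagens are the main structural proteins of the extracellular matrix. Each molecule is a triple helix of chains, and the chains of one type are encoded by separate genes that must be made together. Fibrillar collagens build the rope-like fibrils of stroma and scar, collagen IV forms the sheet under epithelium and around vessels, and the other types decorate fibrils, form fine filaments or anchor cells to matrix. In tumors, fibroblasts and mural cells (the pericytes and smooth muscle cells of vessel walls) are the best known source of collagen, whereas macrophages are better known for taking up and degrading it.

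The total count of a library lay between 20755886 and 23518045. Levels are given as CPM, counts scaled to a common library total after TMM normalization, which sets the scale so that most genes agree between libraries. The smallest signal taken as detectable, 3 counts, was 0.109 to 0.163 CPM, a floor for counting error only, since PCR copies of 1 molecule were not told apart. Syk itself went against the labels: its level was 27.9 and 23.2 CPM in M7 and M8 and 196 and 160 CPM in M9 and M10, a log2 fold change of 2.80 (SE 0.194, adjusted p = 0.000674 by edgeR's quasi-likelihood test). Every direction is therefore given for the libraries as labelled. The 10 macrophage markers counted further below had a median log2 fold change of 3.01, and the part of macrophage content in the level of Syk was not tested. The level of Lyz2, the gene that carries the Cre recombinase, was 296 and 208 CPM in M7 and M8 and 8.64 and 20.2 CPM in M9 and M10. Mitochondrial transcripts took 2.20% and 2.34% of the counts in M7 and M8, 6.00% in M9 and 15.9% in M10, and results that rest on M10 are also given without it.

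Collagen transcripts made up a far larger share of the libraries labelled SYK WT. They took 3.15% and 3.18% of all counts in M7 and M8, and 0.683% and 0.716% in M9 and M10, with no overlap. The mean share was 3.16% ± 0.0204 (SD, n = 2) against 0.700% ± 0.0231 (SD, n = 2), a ratio of 4.52. With 2 libraries in each group, the exact permutation p (two-sided) was 0.333, the smallest possible. When mitochondrial and ribosomal RNA-like counts were left out of the total, the ratio was 3.99.

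All 3 classes took a smaller share in the libraries labelled SYK KO. Fibrillar collagens took 2.07% and 2.17% of the counts in M7 and M8 and 0.423% and 0.463% in M9 and M10. Basement membrane collagens took 0.108%, 0.101%, 0.0312% and 0.0230% in M7, M8, M9 and M10, and other collagens 0.970%, 0.903%, 0.229% and 0.230%. The ratios of the means were 4.79 for fibrillar, 3.84 for basement membrane and 4.08 for other collagens. Within the collagen counts, fibrillar chains took 65.8% and 68.4% in M7 and M8 and 61.9% and 64.7% in M9 and M10, so both libraries labelled SYK KO lay below both others. Col5a1 alone went from 11.9% and 10.4% to 7.06% and 7.83% of collagen counts, while Col1a1 and Col3a1 together took between 45.9% and 51.3%.

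**Figure D1:**
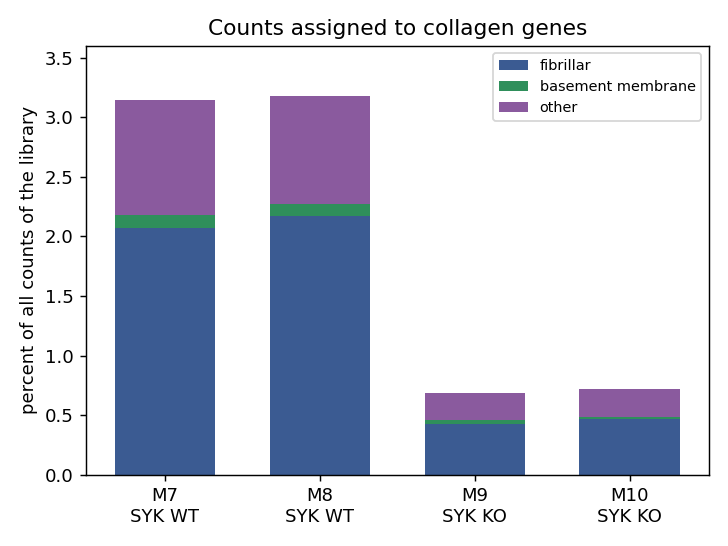
Percent of all counts of a library (vertical axis, linear from 0) that fell on collagen genes, for the 4 libraries on the horizontal axis, with the colors of each bar giving the 3 classes. The bars of M7 and M8 reach 3.15% and 3.18% and those of M9 and M10 reach 0.683% and 0.716%, with fibrillar collagens the widest band in each.

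Gene by gene, 37 of the 44 collagens passed the expression filter, and 22 of these were lower in the libraries labelled SYK KO with an adjusted p under 0.05 (edgeR's quasi-likelihood test, Benjamini-Hochberg adjustment over 16451 genes). Among all genes tested, 16.7% were lower and 22.7% were higher. No collagen was called higher by edgeR or by DESeq2 (19.5% of all genes by DESeq2), and 1, Col14a1, was higher at an unadjusted p under 0.05 in edgeR. By class, 8 of 10 fibrillar, 3 of 6 basement membrane and 11 of 21 other collagens were lower. The median log2 fold change was -1.61 over the fibrillar, -1.40 over the basement membrane and -1.43 over the other collagens tested, against 0.016 over all genes. In 26 of the 37 collagens both libraries labelled SYK KO lay below both labelled SYK WT, which held for 37.2% of all genes tested, and in 3 (Col14a1, Col20a1 and Col26a1) they lay above, against 38% of all genes. Some of the 26, such as Col4a3, Col9a2 and Col17a1, passed the filter only through M7 and M8, so the filter itself favors their direction. With at least 10 counts required in every library, 22 of 30 collagens tested were lower. Among all 13725 genes tested with that filter, 2777 were lower and 3358 were higher. Without M10, 28 collagens were lower (27.4% of all genes) and 1 was higher (28.9%). Without M8, the count of lower collagens was 18 (4.69% of all genes, with 8.58% higher), the smallest of the 4. With libraries scaled to macrophage or leukocyte markers, 34 and 36 collagens were lower, but so were 87.3% and 93% of all genes, with 0.76% and 0.304% higher. By DESeq2's Wald test 23 were lower, against 15.9% of all genes.

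Of the 21 collagens with an average over 20 CPM, 20 were lower, against 16.7% of all genes tested at any level. The share among all genes over 20 CPM was not computed. A further 12 tested collagens had an average between 0.460 and 3.26 CPM and no adjusted p under 0.05. The 7 that did not pass the filter (Col2a1, Col6a4, Col6a6, Col9a1, Col10a1, Col19a1 and Col28a1) had at most 15 counts in any library, and Col9a1 had 0 in all 4. These genes were not tested for a difference. In bulk RNA, fewer cells of a collagen-making type and less collagen RNA per cell cannot be told apart.

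**Figure D2:**
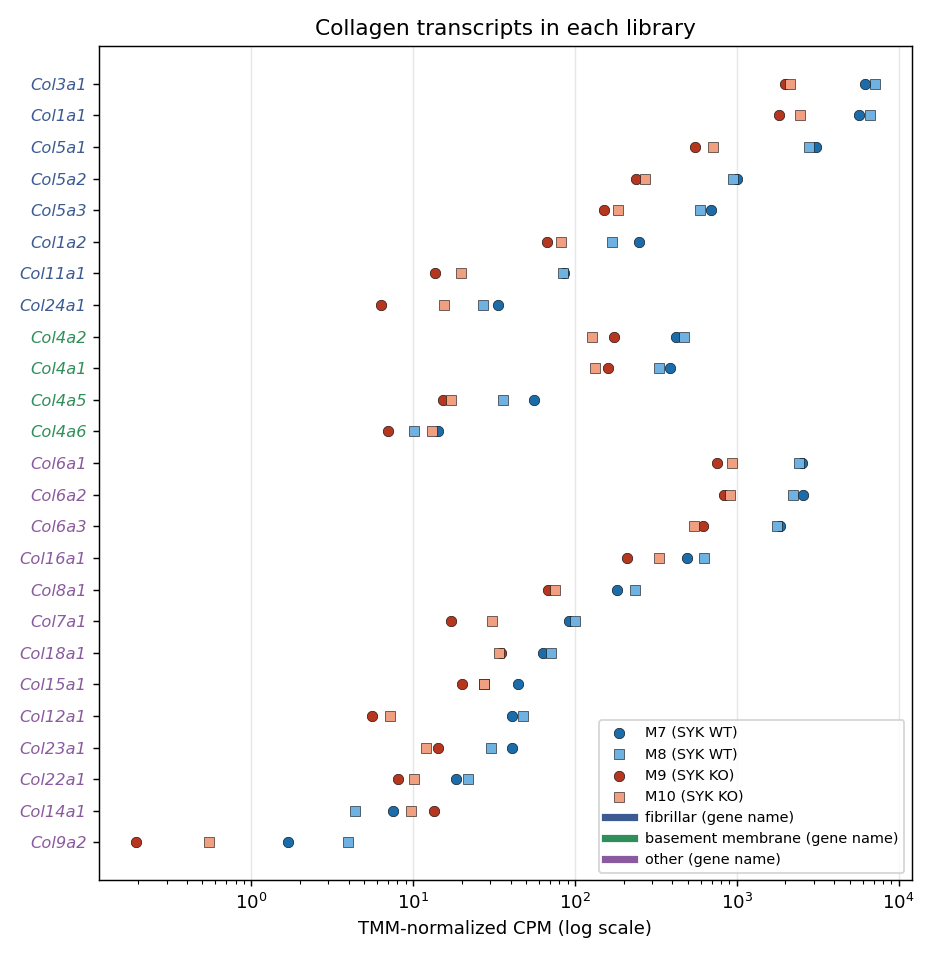
TMM-normalized CPM (horizontal axis, log scale) of 25 collagens in each library, with gene names colored by class, circles for M7 and M9, squares for M8 and M10, blue for libraries labelled SYK WT and red for those labelled SYK KO. In 23 of the 25 genes the groups do not overlap, and Col14a1 is the one among these with the red points to the right, while Col4a6 and Col15a1 overlap. Among all genes tested, both libraries labelled SYK KO lay below both others in 37.2% and above both in 38%.

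The fibrillar collagens were led by Col3a1 and Col1a1, the chains of collagen III and of the most abundant collagen of skin, bone and scar. Col3a1 (chromosome 1, 45311538 to 45349706, GRCm38) had 6158 and 7118 CPM in M7 and M8 and 1990 and 2121 CPM in M9 and M10. This was 3.23-fold lower in the libraries labelled SYK KO (log2 fold change -1.69, SE 0.271, adjusted p = 0.00525). Col1a1 (chromosome 11, 94936224 to 94953042) had 5662 and 6641 CPM in M7 and M8 and 1811 and 2476 CPM in M9 and M10, with a log2 fold change of -1.52 (SE 0.297, adjusted p = 0.0101). For both genes the lowest library labelled SYK WT lay more than 2-fold above the highest labelled SYK KO. Col1a2, the partner chain of Col1a1 in collagen I, was far less abundant. Its levels were 248, 169, 66.9 and 82.3 CPM in M7, M8, M9 and M10, and it was lower by a similar factor (log2 fold change -1.48, SE 0.235, adjusted p = 0.00513).

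Collagen V starts fibrils and limits their width, and all 3 of its chains were lower. Col5a1 (chromosome 2, 27886425 to 28039514) had 3070 and 2785 CPM in M7 and M8 and 551 and 713 CPM in M9 and M10 (log2 fold change -2.21, SE 0.257, adjusted p = 0.00202). Col5a2 had 1003 (M7), 944 (M8), 239 (M9) and 272 CPM (M10), and Col5a3 had 691, 595, 152 and 186 CPM in the same order. Both had a log2 fold change of -1.93, with adjusted p = 0.00143 and 0.00159, so the 4 libraries fall into the same 2 levels for each chain. Col5a2 lies beside Col3a1 on chromosome 1, tail to tail with a gap of 24614 bases.

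Col11a1, a chain of the minor fibrillar collagen XI that joins collagen V in fibrils, showed the largest fall among the fibrillar genes. Its levels were 86.1 and 84.6 CPM in M7 and M8 and 13.6 and 19.7 CPM in M9 and M10 (log2 fold change -2.36, SE 0.217, adjusted p = 0.00111). Col24a1, a minor fibrillar chain, had 33.4, 27.2, 6.36 and 15.5 CPM in M7, M8, M9 and M10. The call for Col24a1 (log2 fold change -1.47, adjusted p = 0.03005) was lost without M7 (adjusted p = 0.0731). The 2 remaining fibrillar genes tested, Col11a2 and Col27a1, had log2 fold changes of -0.36 and -0.18 at levels below 5 CPM and did not pass the test.

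The sequences just upstream of 5 of these fibrillar genes are shown because their transcripts fell together over a wide range of abundance. They are the 250 bases before the RefSeq start on GRCm38.p6, 5′ to 3′ on the gene's strand, for fibrillar genes that were lower and whose whole window lies outside annotated exons. Capitals mark 3 motifs, searched on both strands. One is CCAAT, the site of the nuclear factor Y complex. Another is GGGCGG, the GC box bound by Sp factors. The last is TATAAA, a form of the TATA box. No motif searched contains another.
Col3a1, chr1:45311288-45311537, plus strand: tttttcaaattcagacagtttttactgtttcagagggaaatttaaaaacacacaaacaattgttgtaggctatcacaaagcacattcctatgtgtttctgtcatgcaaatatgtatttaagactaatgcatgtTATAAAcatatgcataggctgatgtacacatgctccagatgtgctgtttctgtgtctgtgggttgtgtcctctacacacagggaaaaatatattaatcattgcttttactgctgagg
Col5a1, chr2:27886175-27886424, plus strand: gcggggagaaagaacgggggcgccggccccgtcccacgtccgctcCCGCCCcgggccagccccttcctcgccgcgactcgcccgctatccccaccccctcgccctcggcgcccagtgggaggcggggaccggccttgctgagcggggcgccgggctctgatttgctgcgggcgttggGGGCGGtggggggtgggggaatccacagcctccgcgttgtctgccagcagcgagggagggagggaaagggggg
Col5a3, chr9:20815068-20815317, minus strand: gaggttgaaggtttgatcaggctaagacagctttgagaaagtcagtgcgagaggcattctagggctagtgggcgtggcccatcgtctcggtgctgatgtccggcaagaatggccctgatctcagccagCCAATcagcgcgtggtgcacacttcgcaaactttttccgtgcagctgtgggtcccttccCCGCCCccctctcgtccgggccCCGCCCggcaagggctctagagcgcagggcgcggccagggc
Col11a1, chr3:114030290-114030539, plus strand: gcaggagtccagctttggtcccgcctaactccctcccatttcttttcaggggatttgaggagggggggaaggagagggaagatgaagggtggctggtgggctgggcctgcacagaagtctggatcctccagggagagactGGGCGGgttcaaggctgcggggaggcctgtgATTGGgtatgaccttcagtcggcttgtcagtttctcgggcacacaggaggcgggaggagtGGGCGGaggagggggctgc
Col24a1, chr3:145292222-145292471, plus strand: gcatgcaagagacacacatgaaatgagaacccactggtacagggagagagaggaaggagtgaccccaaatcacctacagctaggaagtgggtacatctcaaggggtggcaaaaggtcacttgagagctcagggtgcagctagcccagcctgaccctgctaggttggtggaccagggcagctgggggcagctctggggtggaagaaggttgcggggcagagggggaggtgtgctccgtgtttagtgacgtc
Col3a1 had TATAAA at -117 and no other match, counting back from -1 as the base before the start. Col5a1 had GGGCGG at -73 and its complement at -205. Col11a1 had GGGCGG at -110 and -19 and the complement of CCAAT at -79. Col5a3 had CCAAT at -122 and the complement of GGGCGG at -63 and -41, and Col24a1 had none of the motifs. Windows were available for 35 of the 44 collagens. Among these 35 collagens, CCAAT was found in 13, GGGCGG in 21 and TATAAA in 5, counting a match in any window of the gene. Over all genes, 33.8%, 32.7% and 12.4% of 32851 windows of the same length held them. The former are counts of genes and the latter are shares of windows, so the figures are not measured alike. Of the 18 collagens that were lower and had a window, 9 held CCAAT, 13 held GGGCGG and 1 held TATAAA, so no searched motif was common to them all. Of the 11 tested collagens with a window and no call, 2 held CCAAT, 6 held GGGCGG and 3 held TATAAA. Whether these shares differ was not tested. A match is a run of letters and not a measured binding site.

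Collagen IV is the network former of every basement membrane, and its common chains Col4a1 and Col4a2 were lower. Col4a1 (chromosome 8, 11198423 to 11312826) had 387 and 330 CPM in M7 and M8 and 159 and 132 CPM in M9 and M10 (log2 fold change -1.30, SE 0.189, adjusted p = 0.00392). Col4a2 (chromosome 8, 11312805 to 11449287) had 423 and 469 CPM in M7 and M8 and 174 and 127 CPM in M9 and M10 (log2 fold change -1.57, SE 0.214, adjusted p = 0.00319). The genes lie head to head, and their annotated starts overlap by 22 bases on opposite strands. Whether the counting used strand was not given in the sources used here.

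Col4a5 and Col4a6 form a second head-to-head pair on chromosome X, 1308 bases apart, whose products combine in some smooth muscle and skin basement membranes. Col4a5 had 55.5, 36.1, 15.2 and 17.3 CPM in M7, M8, M9 and M10 and was lower (log2 fold change -1.49, SE 0.245, adjusted p = 0.00572). Col4a6 had 14.2, 10.2, 7.04 and 13.1 CPM, its groups overlapped, and it did not pass the test (log2 fold change -0.28, SE 0.362, adjusted p = 0.572). The value for Col4a6 turned on the libraries labelled SYK KO: it was -0.78 (adjusted p = 0.0269) without M10 and 0.015 (adjusted p = 0.969) without M9. The third pair, Col4a3 and Col4a4, which serve the kidney filter and the inner ear, were near the floor. Col4a3 had 23, 23, 4 and 3 counts in M7, M8, M9 and M10 (log2 fold change -2.27, adjusted p = 0.0509), and shares bases with an overlapping transcript of up to 9 counts. Col4a4 had 47, 60, 30 and 63 counts (log2 fold change 0.23, adjusted p = 0.776).

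Among the other types, collagen VI was the most abundant. It forms beaded filaments around cells, and its 3 main chains were lower together. Col6a1 had 2530 and 2430 CPM in M7 and M8 and 756 and 929 CPM in M9 and M10, with a log2 fold change of -1.56 (SE 0.237, adjusted p = 0.00452). Col6a2 had 2570, 2241, 840 and 905 CPM in M7, M8, M9 and M10 (log2 fold change -1.46), and Col6a3 had 1838, 1771, 618 and 541 CPM (log2 fold change -1.64). The adjusted p was 0.00492 for Col6a2 and 0.00289 for Col6a3. Of the 3 further chains of the family, Col6a5 was tested, with 108, 51, 5 and 59 counts and a log2 fold change of -0.81 (adjusted p = 0.556), so its single low library was M9.

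The FACIT collagens (fibril-associated collagens with interrupted triple helices) coat fibrils rather than form them, and 4 of the 7 tested were lower. Col12a1, which sits on collagen I fibrils in tendon and stroma, had 40.6 and 47.9 CPM in M7 and M8 and 5.58 and 7.25 CPM in M9 and M10. At 6.90-fold it was the most strongly lowered collagen above 20 CPM on average (log2 fold change -2.79, SE 0.219, adjusted p = 0.000812). Its close relative Col14a1 had 7.47 and 4.35 CPM in M7 and M8 and 13.4 and 9.75 CPM in M9 and M10. The groups of Col14a1 did not overlap, but the difference did not pass the threshold (log2 fold change 0.97, SE 0.359, adjusted p = 0.0738). It passed without M10 (1.20, adjusted p = 0.00253), and the sign was turned to -1.82 (adjusted p = 0.00567) when libraries were scaled to macrophage markers and to -2.69 (adjusted p = 2.81e-05) when scaled to leukocyte markers.

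Col16a1, a widely expressed FACIT, had 495, 629, 211 and 329 CPM in M7, M8, M9 and M10 and was lower (log2 fold change -1.06, adjusted p = 0.0232). Col22a1, known from tissue junctions, had 18.5, 21.8, 8.06 and 10.1 CPM in the same order (log2 fold change -1.15, adjusted p = 0.0116). Neither gene was called without M8 (adjusted p = 0.125 and 0.113). Col9a2, a cartilage collagen, had 46, 98, 4 and 10 counts in M7, M8, M9 and M10 (log2 fold change -2.93, SE 0.778, adjusted p = 0.0268). The call for Col9a2 was lost without M7 (adjusted p = 0.0561) and without M8 (adjusted p = 0.363). Of the cartilage genes counted beside it, Acan had at most 1 count in a library and Comp was at or below 1.83 CPM. Sox9 stood at 24.4, 29.4, 12.3 and 15.5 CPM in M7, M8, M9 and M10 and was lower (adjusted p = 0.0167 by edgeR). Col9a3, the partner chain of Col9a2, had 22, 39, 5 and 15 counts and did not pass the test (adjusted p = 0.289). Col20a1 had 19 to 27 counts in every library, while a same-strand overlapping transcript held 110 to 251.

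The remaining named members included vessel-associated and membrane types. Col18a1, whose C-terminal fragment is endostatin, had 63.3 and 71.4 CPM in M7 and M8 and 35.0 and 33.9 CPM in M9 and M10 (log2 fold change -0.97, SE 0.156, adjusted p = 0.00538). The call for Col18a1 was lost without M8 (adjusted p = 0.0655). Its relative Col15a1 had 44.7, 27.4, 20.1 and 27.5 CPM, with overlapping groups and no call (log2 fold change -0.60, adjusted p = 0.136). It was called lower without M10 (log2 fold change -0.83, adjusted p = 0.00584) and with library size alone (-1.15, adjusted p = 0.0209).

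Col7a1, the collagen of the anchoring fibrils that hold skin epithelium to its dermis, had 92.1 and 100.4 CPM in M7 and M8 and 17.1 and 31.0 CPM in M9 and M10 (log2 fold change -2.00, SE 0.287, adjusted p = 0.00375). Col8a1, a short-chain collagen of vessel walls and the cornea, had 181, 235, 68.5 and 75.7 CPM in M7, M8, M9 and M10 (log2 fold change -1.53, adjusted p = 0.00242). Col23a1, a transmembrane collagen, had 40.9, 30.4, 14.3 and 12.0 CPM (log2 fold change -1.44, adjusted p = 0.00463). For each of the 3 the libraries labelled SYK KO lay below both others. Of the other transmembrane types, Col13a1 had a log2 fold change of -1.43 (adjusted p = 0.0753), Col17a1 of -1.76 (adjusted p = 0.0898) and Col25a1 of 1.04 (adjusted p = 0.537). Col8a2, the partner of Col8a1, had 71, 82, 3 and 31 counts in M7, M8, M9 and M10 and did not pass the test (adjusted p = 0.198), and Col26a1 had 19, 12, 18 and 24 counts (adjusted p = 0.320).

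**Figure D3:**
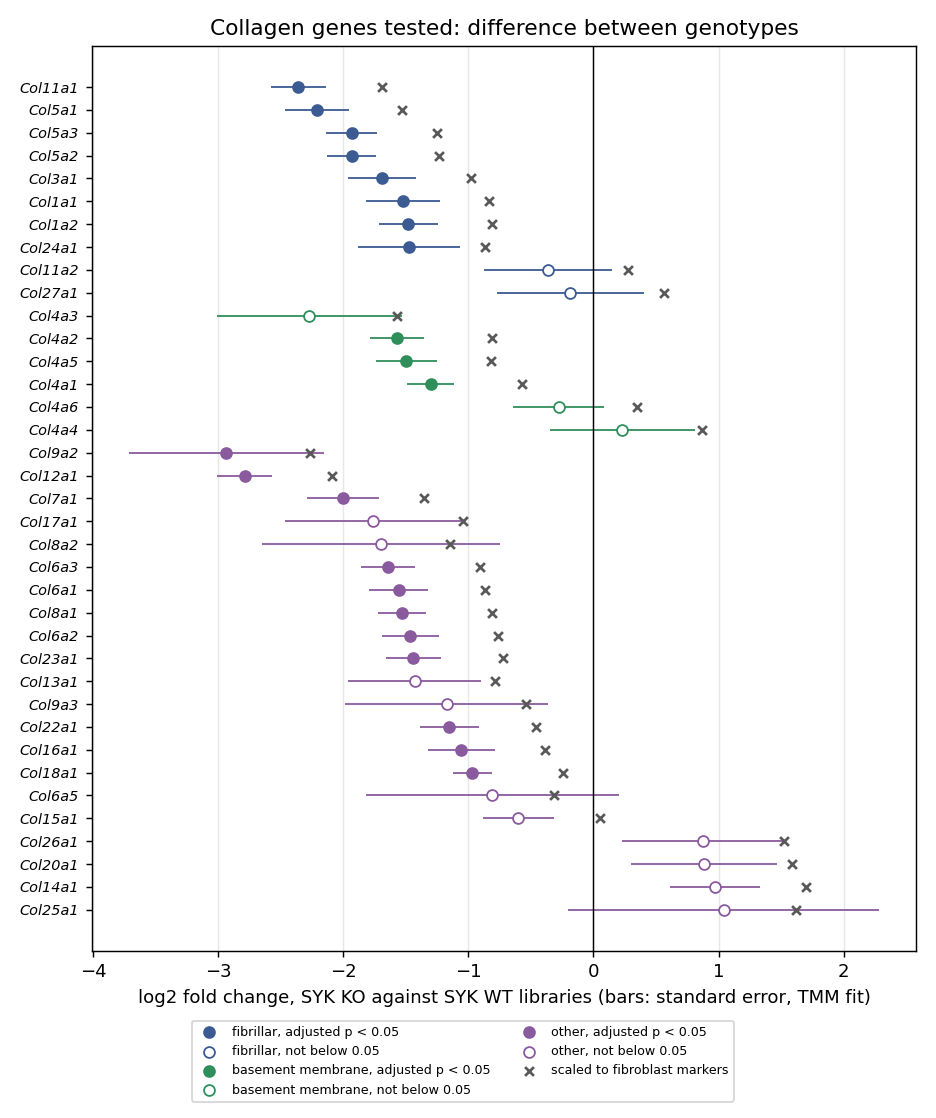
Log2 fold change (horizontal axis) between libraries labelled SYK KO and SYK WT for the 37 collagens tested, grouped by class in color, with bars of 1 standard error, filled points for an adjusted p under 0.05 and open points for the rest. Grey crosses give the same genes with libraries scaled to fibroblast markers, under which the median moves from -1.47 to -0.81. The median over all genes tested moves with it, from 0.016 to 0.72.

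Levels of different genes were compared per kilobase of exon. In the libraries labelled SYK WT, Col1a1 stood first with 863 and 1012 CPM per kilobase in M7 and M8, followed by Col3a1 with 627 and 725, Col6a1 with 578 and 555 and Col5a1 with 362 and 328. These neighbours did not overlap in M7 and M8. In M9 and M10 the order of these 4 was kept, with 276 and 377 for Col1a1, 203 and 216 for Col3a1, 173 and 212 for Col6a1 and 64.9 and 84.0 for Col5a1, but the values of Col3a1 and Col6a1 overlapped. Col6a2, which lay below Col5a1 in M7 and M8 (309 and 269), lay above it in M9 and M10 (101 and 109). This crossing depends on the length used. The exons add up to 8326 bases for Col6a2 and 8490 for Col5a1, but their longest transcripts hold 4653 and 8406. Col5a2 and Col5a3 also overlapped, at 105 and 98.4 CPM per kilobase against 102 and 87.4 in M7 and M8. The first place depended on the length used. Per base of the longest transcript, Col3a1 to Col1a1 was 1.16, 1.14, 1.17 and 0.913 in M7, M8, M9 and M10. By that length Col3a1 stood above Col1a1 except in M10.

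Ratios between chains in the same library do not depend on how libraries are scaled, and 15 were formed. Col6a1 to Col6a2 stood at 0.984, 1.08, 0.901 and 1.03 counts per count in M7, M8, M9 and M10, and Col3a1 to Col1a1 at 1.09, 1.07, 1.10 and 0.857, with overlapping groups in both. Col1a1 to Col1a2 was 22.8, 39.4, 27.1 and 30.1 by counts, so it varied more between the libraries labelled SYK WT than between genotypes. Per base of the longest transcript this ratio was 20.6, 35.5, 24.4 and 27.1, and per base of all exons it was 43.2 to 74.6, because the exons of Col1a2 add up to 12426 bases over all annotated transcripts. Collagen I molecules most often hold more chains from Col1a1 than from Col1a2, but by a far smaller factor than either ratio.

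In 8 of the 15 ratios the groups did not overlap. Col12a1 to Col1a1 was 0.00717 and 0.00721 in M7 and M8 and 0.00308 and 0.00293 in M9 and M10, a log2 difference of -1.26 with SDs of 0.00457 and 0.0529 (n = 2 each). Col14a1 to Col1a1 was 0.00132 and 0.000656 in M7 and M8 and 0.00743 and 0.00394 in M9 and M10, a log2 difference of 2.54 with SDs of 0.714 and 0.647. Both libraries labelled SYK KO thus held less Col12a1 and more Col14a1 per count of Col1a1 than both labelled SYK WT. Col4a6 to Col4a5 was 0.256 and 0.282 in M7 and M8 and 0.462 and 0.757 in M9 and M10. Within collagen V, Col5a1 to Col5a2 was 3.06 and 2.95 in M7 and M8 and 2.31 and 2.62 in M9 and M10, and Col5a3 to Col5a1 was 0.225 and 0.214 against 0.275 and 0.261. Of the other 3, Col4a1 to Col4a2 (0.916, 0.703, 0.916 and 1.04) and Col18a1 to Col4a1 (0.163, 0.216, 0.220 and 0.256) were separated by a hair, and Col11a1 to Col5a1 was 0.0280, 0.0304, 0.0247 and 0.0277. Exact permutation tests (two-sided) gave p = 0.333 for each of the 8, the smallest possible, and 0.625 after adjustment over 15.

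**Figure D4:**
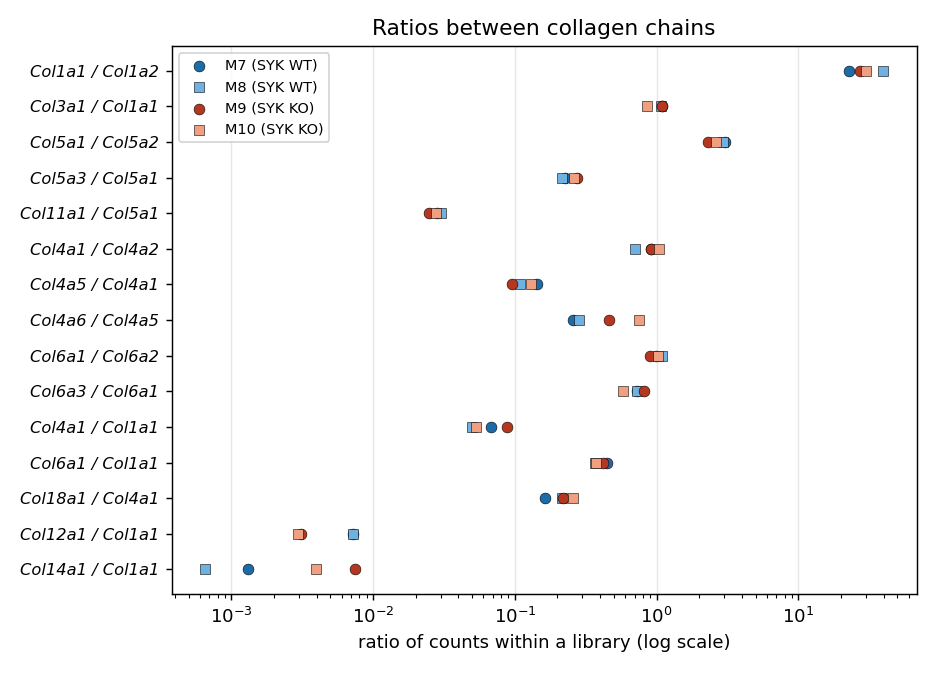
Ratio of counts of 2 collagen genes within each library (horizontal axis, log scale) for 15 gene pairs, with blue points for M7 and M8 and red points for M9 and M10. Points of the 4 libraries lie together for Col6a1 to Col6a2 and part for Col12a1 to Col1a1, Col14a1 to Col1a1 and Col4a6 to Col4a5.

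Markers of several cell types also differed between the groups, and their counts are read against the 16.7% lower and 22.7% higher among all genes. The summed level of 9 mural cell markers was 701 and 692 CPM in M7 and M8 and 181 and 246 CPM in M9 and M10, with 7 of 9 lower and a median log2 fold change of -1.45. For 10 fibroblast markers that are no collagens, the sums were 422 and 460 CPM against 239 and 327 CPM, with 2 of 10 lower (Pdgfra and Thy1), close to the share of all genes, and a median of -0.70. Endothelial markers summed to 240, 232, 172 and 159 CPM, with 4 of 10 lower. All 10 macrophage markers were higher, and their sum was 1122 and 776 CPM in M7 and M8 and 9212 and 5799 CPM in M9 and M10, and all 6 leukocyte markers were higher as well (245 and 184 against 3001 and 2223 CPM). No marker of these 5 lists was at 0 in all libraries. Among neuroblastoma markers, Th and Dbh were at 0 in all 4 libraries, Hand2 stood at 178 to 301 CPM, and Gata3 and Mycn were higher. The part of these cells in the collagen result was not tested.

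Other cell types that make particular collagens were counted in the same way, beside the 16.7% lower and 22.7% higher among all genes. Chondrocyte and osteoblast markers summed to 194, 193, 88.1 and 85.4 CPM in M7, M8, M9 and M10, most of it from Runx2 and Sox9, which were both lower (2 of 4 tested), and Ibsp was at 0 in all libraries. Skeletal muscle markers summed to at most 7.12 CPM (2 of 4 tested lower, Myh4 at 0 in all). Schwann cell markers summed to 7.04 to 17.4 CPM (0 of 3 tested called), and keratinocyte markers to 5.25 to 38.4 CPM (3 of 4 tested higher, Krt1 at 0 in all). Most of the keratinocyte sum in M9 and M10 was Cdh1, at 31.2 and 22.4 CPM. Krt5 was not called (log2 fold change 0.010), and Krt14 had at most 3 counts in a library. Adipocyte markers summed to 20.2 to 56.7 CPM, nearly all of it Fabp4, the 1 gene tested, which was higher.

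When libraries were scaled to 9 fibroblast markers instead of TMM, 7 of the 37 collagens were lower and 1 was higher, against 4.66% lower and 36% higher among all genes. The 7 were Col5a1, Col5a2, Col5a3 and Col11a1 of the fibrillar class and Col7a1, Col9a2 and Col12a1 of the others, with log2 fold changes from -1.23 to -2.27, and the 1 higher was Col14a1 (1.70, adjusted p = 0.00774). No basement membrane collagen was called at this scale. Col1a1 and Col3a1 had log2 fold changes of -0.83 (adjusted p = 0.184) and -0.98 (adjusted p = 0.126). The median over the 37 was -0.81 while the median over all genes was 0.72, so the distance from all genes was -1.53, against -1.49 with TMM. These calls depended on every library: without M7, M8, M9 and M10 in turn, 1, 1, 18 and 11 collagens were lower (0.572%, 0.418%, 13% and 8.47% of all genes) and 1, 0, 6 and 2 were higher (9.32%, 6.46%, 43.3% and 50.9%). Scaled to the 9 mural cell markers instead, 2 were lower (1.53% of all genes) and 7 were higher (70%).

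The enzymes and helpers that turn collagen chains into cross-linked fibrils were in part lower as well. Of 33 such genes 31 were tested, 19 were lower and none was higher by edgeR (0 also at an unadjusted p under 0.05, and 0 by DESeq2), against 16.7% lower and 22.7% higher among all genes, with a median log2 fold change of -1.16. All 5 lysyl oxidases, which cross-link fibrils outside the cell, were lower, with a median of -1.81. Loxl3 had 54.3, 59.8, 14.0 and 18.6 CPM in M7, M8, M9 and M10 (log2 fold change -1.81, adjusted p = 0.00176), Loxl2 had a log2 fold change of -1.83, Lox of -1.29 and Loxl4 of -2.47. Of 8 tested genes of propeptide removal and fibril assembly, 6 were lower. Bmp1, the protease that removes the C-terminal propeptide, had 346, 378, 73.2 and 81.6 CPM (log2 fold change -2.23, adjusted p = 0.00078). Sparc, a collagen-binding glycoprotein, had 1690, 1769, 577 and 516 CPM (-1.66, adjusted p = 0.00263). Fmod, a fibril-bound proteoglycan, had a log2 fold change of -1.51, Adamts14, which removes the N-terminal propeptide, of -1.70, and Pcolce2, an enhancer of Bmp1, of 0.16 (adjusted p = 0.855).

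The genes that hydroxylate and fold the chains inside the cell divided. Of 18 tested, 8 were lower and 10 had no call, with a median of -0.58, while 16.7% of all genes were lower. Plod2, which hydroxylates lysines at the chain ends, had 201, 255, 54.0 and 56.9 CPM in M7, M8, M9 and M10 (log2 fold change -2.04, adjusted p = 0.00107), and P3h3, of the prolyl hydroxylase family, had a log2 fold change of -2.05 (adjusted p = 0.00218). The most abundant members did not pass the test. P4hb, which is also the general disulfide isomerase of the cell, had 2273, 2239, 1638 and 1514 CPM (log2 fold change -0.52, adjusted p = 0.112). Serpinh1, the collagen chaperone, had 580, 557, 471 and 705 CPM (0.049, adjusted p = 0.890), Ppib, a prolyl isomerase, had 253, 225, 341 and 278 CPM (0.37, adjusted p = 0.157), and P4ha1, a catalytic subunit of prolyl hydroxylase, had 223, 249, 320 and 283 CPM (0.35, adjusted p = 0.146). Relative to fibroblast markers the median of the hydroxylation and folding list was 0.17, against 0.72 over all genes. At this scale the median was -0.87 for propeptide removal and assembly and -1.12 for cross-linking. Each list thus lay below all genes, as it did with TMM, where the median over all genes was 0.016.

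**Figure D5:**
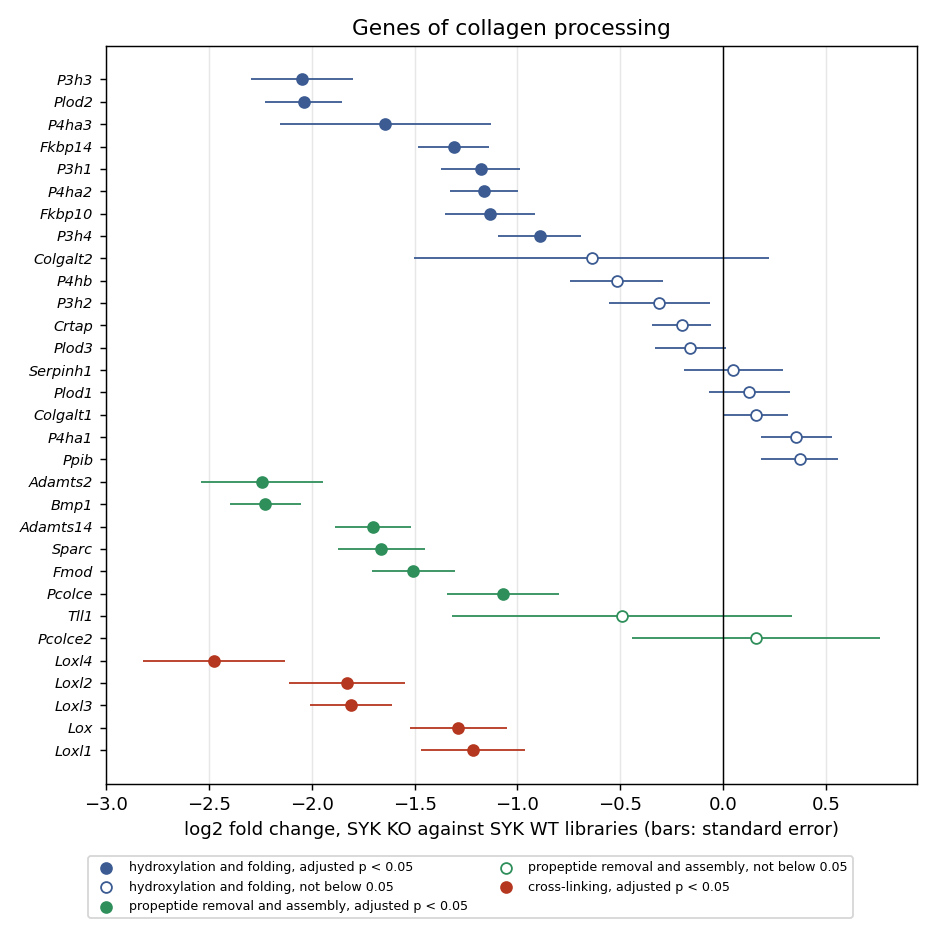
Log2 fold change (horizontal axis) between libraries labelled SYK KO and SYK WT for the 31 genes of collagen processing that were tested, colored by step, with bars of 1 standard error and filled points for an adjusted p under 0.05. All 5 cross-linking genes lie to the left of 0 and are filled, while 10 of 18 hydroxylation and folding genes are open.

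Of 11 receptors for collagen 10 were tested, 4 were lower and 2 were higher, against 16.7% and 22.7% of all genes, so the count of higher receptors was near the background. Itga10, a collagen-binding integrin subunit of cartilage, had 71.7 and 88.1 CPM in M7 and M8 and 4.66 and 5.01 CPM in M9 and M10 (log2 fold change -4.05, adjusted p = 0.000486). Ddr2, the discoidin receptor kinase of fibroblasts, had 330, 337, 114 and 127 CPM (-1.47, adjusted p = 0.00185), and Mrc2, the uptake receptor of fibroblasts, had 676, 896, 277 and 463 CPM (-1.09, adjusted p = 0.0298). The 2 that were higher are receptors of leukocytes. Mrc1, the mannose receptor, which binds and takes up collagen in macrophages, had 238 and 184 CPM in M7 and M8 and 1914 and 908 CPM in M9 and M10 (2.74, adjusted p = 0.00375). Lair1, an inhibitory receptor for collagen, had 5.54 and 2.89 CPM against 43.3 and 40.1 CPM (3.30, adjusted p = 0.00134). Itgb1, the subunit shared by collagen-binding integrins, had 566, 527, 698 and 556 CPM (0.20, adjusted p = 0.471).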

How the data were processed

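The authors mapped reads to mm10, and the submitters' notes name STAR 2.6.1d, Salmon 1.4.0, Picard 2.26, SAMtools 1.9 and MultiQC 1.11. The deposited values are whole-number counts per Ensembl mouse gene, not normalized, and how whole counts were made from Salmon's estimates was not given in the sources used here. The labels name paired-end sequencing on a NovaSeq and RNA "from BMDMs" after bead isolation of TAMs, whereas the study's methods describe single reads and 3 replicates, and 2 libraries per genotype were analysed here. The collagens, the gene lists and the rule for naming genes (collagens tested with an average of at least 5 CPM or an adjusted p under 0.05, and from each other list the 3 most abundant and, in each direction, the 2 of smallest adjusted p) were chosen with earlier results of these data known. Symbols, positions and exon lengths came from GENCODE M21 on GRCm38 (54495 genes matched, 37 not).

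Counts were analysed in R 4.3.3 with edgeR 4.0.16: filterByExpr, TMM (factors 1.22, 1.19, 0.876 and 0.787 for M7 to M10), glmQLFit and glmQLFTest on genotype alone, and Benjamini-Hochberg adjustment over 16451 genes. The SE is the log2 fold change divided by the square root of F. CPM used the normalized library sizes. Total counts were 22448600, 20755886, 23518045 and 23351087 in M7, M8, M9 and M10. Replicate libraries were not within sampling noise of each other (chi-square per degree of freedom 50.6 in SYK WT and 168 in SYK KO). Alternatives were other scalings (DESeq2 size factors, library size, marker lists), other filters and thresholds, DESeq2 1.42.0, omission of mitochondrial and ribosomal RNA-like genes, and each library left out.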

Additional observations from a re-analysis of the deposited data

How the results depend on the processing

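No paired analysis was possible because the groups share no library numbers. Of the 22 collagens that were lower, all stayed lower with DESeq2 size factors, with library size alone and with the Wald test of DESeq2 (23, 26 and 23 lower in total). Among all genes, the same settings called 2863 of 16451, 5411 of 16451 and 2909 of 18346 lower. The count rose to 34 with libraries scaled to macrophage markers and 36 with leukocyte markers. These scalings called 87.3% and 93% of all genes lower and moved the median of all genes to -2.79 and -3.65. Library size alone moved that median to -0.52. The count ranged from 18 to 28 with a library left out, where the lone library is assumed to vary like the other genotype's. The distance of the collagen median from that of all genes stayed between -1.55 and -1.29 in these settings. One collagen, Col14a1, was higher with all genes of at least 1 count (1 higher), at an adjusted p under 0.1 (1 higher) and with a library left out (0 to 1). With library size, macrophage and leukocyte scaling, the class medians were -2.15, -4.42 and -5.27 (fibrillar), -1.93, -4.18 and -5.04 (basement membrane) and -1.97, -4.18 and -5.04 (other). The median of the other class was -1.12 with all genes of at least 1 count, -1.16 with DESeq2, both with more genes of low count, and -1.54 to -1.04 with a library left out. Processing genes that were lower numbered 31 under either leukocyte or macrophage scaling, and 0 to 2 were higher with a library left out. The share of counts differed by -2.53 percentage points without mitochondrial and ribosomal RNA-like counts, against -2.46. Relative to fibroblast markers, 7 collagens were lower and 1 higher. This became 2 and 7 with mural cell markers, where 1.53% of all genes were lower and 70% higher. It was 4 and 3 with both lists (423 and 9191 of 16451 genes) and 11 and 1 with DESeq2 (603 and 6311 of 17830 genes). Over 299 alternatives for single collagens, 280 kept direction and side of the threshold, 10 gained a call, 6 lost one and 3 reversed. Col4a6 ranged from -0.78 to 0.015 with a library left out, and reversed without M9, and Col14a1 reversed to -1.82 and -2.69 under macrophage and leukocyte scaling. Apart from these scalings, whose construction sets the shift, the cause was not tested. Depth limits the collagens below about 3 CPM.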

Other observations

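The genes whose levels followed Col1a1 most closely were sought among 10019 genes of at least 10 CPM on average that are no collagens, by the root mean square distance of log2 CPM centred over the 4 libraries. The 10 nearest were Yod1, Fzd1, Adamts7, Dido1, 4933431E20Rik, Klc3, Nlgn2, Khdc4, Nfatc4 and Fndc4, at distances of 0.0183 to 0.0605. Yod1, a deubiquitinase, had 30.4, 35.9, 9.71 and 13.2 CPM in M7, M8, M9 and M10, and Fzd1, a Wnt receptor, had 107, 128, 33.7 and 44.6 CPM. The nearest to Col4a1 were Ttll7, Rnpc3, Sgk1, Trp53inp1, Runx2, Mapkbp1, Slc26a11, Fkbp14, Nav1 and Mtbp, at distances of 0.0406 to 0.0792. Sgk1, a salt- and steroid-responsive kinase, had 384, 364, 172 and 141 CPM, and Fkbp14, a prolyl isomerase of collagen folding, had 44.1, 43.3, 19.1 and 16.2 CPM. With 4 libraries in 2 groups, such likeness is set mostly by the difference between genotypes and by 1 difference within each, and the lists have no gene in common.

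Neighbouring collagen genes did not always have similar log2 fold changes. The log2 fold changes of Col3a1 and Col5a2 were -1.69 and -1.93, those of Col6a2 and Col6a1, 85161 bases apart on chromosome 10, were -1.46 and -1.56, and those of the head-to-head genes Col4a1 and Col4a2 were -1.30 and -1.57. Those of the head-to-head genes Col4a6 and Col4a5 were -0.28 and -1.49, and those of Col4a4 and Col4a3, 71 bases apart, were 0.23 and -2.27. Of these genes, Col4a6, Col4a4 and Col4a3 were not called, and Col4a4 and Col4a3 were near the floor. Whether the members of a pair differ from each other was not tested beyond the ratios given above.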
